A study of Mus musculus with 6 samples.

Results

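The fatty acid elongases and desaturases described here are 10 genes, Elovl1, Elovl2, Elovl3, Elovl5, Elovl6, Elovl7, Fads1, Fads2, Fads3 and Scd2, chosen by name. All 10 were found among the 21362 genes of the gene table, and all 10 passed the filter on low counts and were tested with 13431 genes in all. Their mRNA was measured by bulk RNA-seq in the livers of 6 male Mettl14f/f mice, which carry loxP-flanked alleles of Mettl14, a subunit of the enzyme complex that writes N6-methyladenosine on RNA. All 6 mice started a high-fat diet (HFD) when 8 weeks old. Adeno-associated virus was injected 10 weeks into the diet, and liver was collected 8 weeks later. The virus carried Cre recombinase in 3 mice (AAV8-TBG-Cre) and green fluorescent protein in the other 3 (AAV8-TBG-GFP). The thyroxine-binding globulin (TBG) promoter restricts either cargo to hepatocytes, so other liver cells keep their Mettl14 alleles. The genotype labels read METTL14 KO and WT, although both groups carry the floxed alleles.

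Elongases sit in the membrane of the endoplasmic reticulum and catalyse the first and rate-limiting step of a cycle that lengthens fatty acyl-CoA by a pair of carbons. Elovl1, Elovl3, Elovl6 and Elovl7 act on saturated and monounsaturated chains, and Elovl2 and Elovl5 act on polyunsaturated chains. Front-end desaturases (Fads1 and Fads2) insert double bonds into dietary polyunsaturated fatty acids, so that Fads2, Elovl5, Fads1 and Elovl2 together make arachidonic and docosahexaenoic acid in liver. Stearoyl-CoA desaturases such as Scd2 make monounsaturated fatty acids.

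In AAV8-TBG-Cre livers Elovl3 fell 4.67-fold, and it was the member with an adjusted p-value under 0.05 in edgeR. Elovl7, Scd2 and Elovl1 were higher by 4.44-fold, 2.19-fold and 1.31-fold at an unadjusted p under 0.05 with a fold of at least 1.2, called the unadjusted threshold below, and did not pass the adjusted one. Elovl2, Elovl5, Elovl6, Fads1, Fads2 and Fads3 passed neither. Among all genes tested, 12% were higher and 8.41% lower at the unadjusted threshold, 20.5% in all, and 0.931% passed the adjusted one in either direction (0.484% higher and 0.447% lower). Of the 10 members, 3 were higher, 1 was lower and 1 passed the adjusted threshold. With a fold of at least 1.5, 2 members were higher and 1 lower, against 9.62% and 3.03% of all genes (12.6% in either direction). The median log2 fold change of the members was 0.31, against -0.01 over all genes.

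The gene labelled as deleted, Mettl14, stood at 6.30, 6.43 and 5.81 CPM (counts scaled to a common library size with TMM factors) in the AAV8-TBG-GFP livers and at 4.96, 5.38 and 4.86 CPM in the AAV8-TBG-Cre livers. Here and below the values of a group are in the order of its replicates 1, 2 and 3. Its log2 fold change was -0.29 (SE 0.15, edgeR adjusted p = 0.337), and in FPKM the groups overlapped. A count over the whole gene does not separate the floxed part from the rest. Below, "AAV8-TBG-Cre" therefore names the vector and not a loss of Mettl14 measured in these libraries. In HFD-fed males given the same vectors, the study reported less METTL14 protein and less N6-methyladenosine in liver, at an earlier time after injection. Library totals lay between 20356440 and 21010508 expected counts. AAV8-TBG-Cre replicate 2 stood apart from the rest, with the highest TMM factor (1.178, against 0.913 to 1.021 in the other 5 libraries). It also had the highest summed levels of bile duct, macrophage and stellate cell markers. Library names come in a short and a long form whose meaning the labels do not give. AAV8-TBG-Cre replicate 1 and the first 2 AAV8-TBG-GFP replicates carry the short form, and the rest the long one. The labels number the replicates, and the study's legend counts them as mice.

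Elovl1 lies on mouse chromosome 4 (118426874 to 118432953, mm10), Elovl6 on chromosome 3 (129532386 to 129638495) and Elovl5 on chromosome 9 (77917365 to 77984519). Chromosome 13 holds Elovl2 (41182382 to 41220403) and Elovl7 (108214326 to 108287109). The other 5 members are on chromosome 19. Fads3 (10040855 to 10060113), Fads2 (10062765 to 10101503) and Fads1 (10182877 to 10196874) form a cluster with gaps of 2.7 kb and 81.4 kb and 0 protein-coding genes in between. Scd2 (44293676 to 44306864) and Elovl3 (46131897 to 46135694) lie further along that chromosome. Counts came from a single transcript for 8 members. For Elovl1 the main transcript took 94.8% to 100% of the counts in each liver and for Elovl2 at least 99.1%, and it was the main transcript in all 6 livers.

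The promoter of both elongases that were higher at the unadjusted threshold is shown, to give the sequence before an annotated start of genes that moved the same way. The 250 bases before the annotated start were taken from RefSeq (GRCm38.p6, plus strand). Its table matched 7 of the 10 members with 9 promoters and gave a further start for Elovl1. The windows of both Elovl1 starts lie inside the gene span given above, and so do the last bases of the Elovl7 window. Capitals mark the GC box (GGGCGG, or CCGCCC on the other strand), the short motif bound by Sp1-type factors.
Elovl1, chr4:118427843-118428092: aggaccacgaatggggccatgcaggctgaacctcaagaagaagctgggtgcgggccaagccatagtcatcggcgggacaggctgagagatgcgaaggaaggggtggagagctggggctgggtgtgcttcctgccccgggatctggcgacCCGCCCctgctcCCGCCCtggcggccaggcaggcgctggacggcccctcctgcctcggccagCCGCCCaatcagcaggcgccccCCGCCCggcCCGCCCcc
Elovl7, chr13:108214154-108214403: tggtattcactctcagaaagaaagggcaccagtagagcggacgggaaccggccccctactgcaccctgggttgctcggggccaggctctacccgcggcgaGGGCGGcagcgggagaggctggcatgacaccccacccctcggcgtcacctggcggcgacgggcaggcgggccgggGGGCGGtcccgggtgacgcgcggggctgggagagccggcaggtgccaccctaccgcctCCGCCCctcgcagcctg
The Elovl1 stretch held 5 GC boxes with 72% G and C, and the Elovl7 stretch held 3 with 73.6%. The other Elovl1 start in the table had 2 GC boxes in its 250 bases and 58% G and C. A GC box was also found at Elovl2 (at 1 of its 2 starts), Fads2 and Fads3, which passed neither threshold, and not at Elovl5 or Elovl6. A GC box occurs in 32.7% of the 32851 promoters in the table, each read from 250 bases before to 50 bases after the start. The CCAAT box (CCAAT) and the E-box (CACGTG) were also searched for in these windows. A CCAAT box was found at 1 of the Elovl1 starts and not at Elovl7, and an E-box at neither gene. The GC box match is a description of these windows. The promoters of Elovl3, Fads1 and Scd2 were not analysed here.

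Levels can be compared between genes in FPKM, which scales by transcript length. In AAV8-TBG-GFP livers Fads2 was highest with 456 ± 155 FPKM (SD, n = 3), followed by Fads1 with 185 ± 47.4, Elovl5 with 179 ± 26.0 and Elovl2 with 143 ± 21.1. The ranges of Fads1 and Elovl5 overlapped, as did those of Elovl5 and Elovl2. The members of the polyunsaturated pathway were thus the most abundant. Elovl3 followed with 31.7 ± 4.84 FPKM, Elovl1 with 22.6 ± 2.50 and Elovl6 with 13.8 ± 6.88. Fads3, Scd2 and Elovl7 were lowest, with 2.32 ± 0.624, 0.887 ± 0.116 and 0.213 ± 0.127 FPKM. From Elovl2 downward, no neighbouring pair had overlapping ranges in this group.

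In AAV8-TBG-Cre livers Fads2 was again highest with 516 ± 54.7 FPKM, followed by Elovl5 (235 ± 105), Elovl2 (223 ± 71.6) and Fads1 (163 ± 44.9), whose ranges overlapped. Elovl3 came 5th in each of the 3 AAV8-TBG-GFP livers and 6th or 7th in the AAV8-TBG-Cre livers, with 7.61 ± 1.38 FPKM. Elovl1 took the 5th place in each AAV8-TBG-Cre liver with 33.3 ± 3.04 FPKM, and the range of Elovl6 (12.0 ± 4.49 FPKM) overlapped that of Elovl3. Fads3 (3.61 ± 0.869), Scd2 (2.23 ± 1.30) and Elovl7 (1.13 ± 0.873) kept the places 8, 9 and 10 in all 6 livers, and their neighbouring ranges overlapped in this group.

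**Figure D1:**
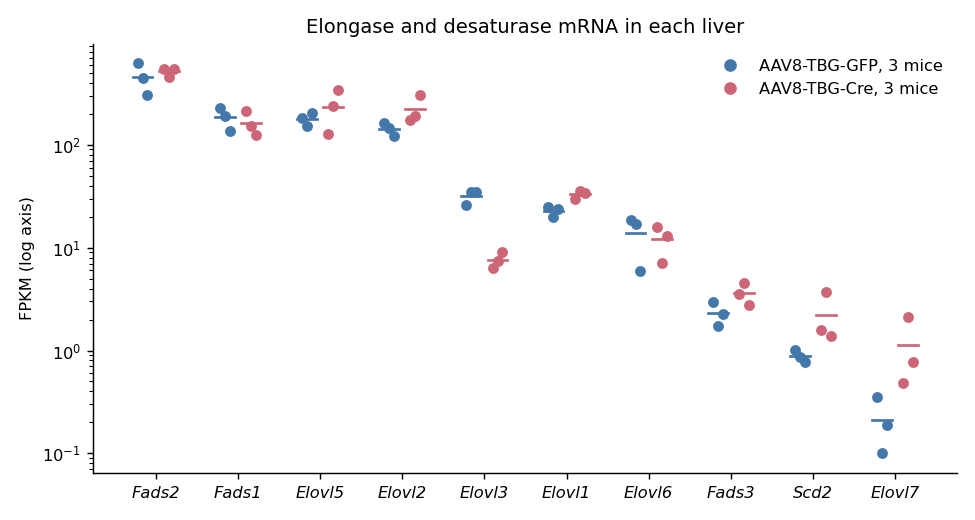
FPKM of each member in each liver on a log axis, with a dot for a mouse and a line for the mean of the 3 mice of a group, ordered by the AAV8-TBG-GFP mean. The groups stand apart for Elovl3, lower with AAV8-TBG-Cre, and for Elovl1, Elovl2, Scd2 and Elovl7, higher with AAV8-TBG-Cre, and overlap for the other 5 members. The share of all genes without overlap in FPKM was not computed. In CPM the groups of Elovl2 overlap, and 27% of all genes tested are without overlap.

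Elovl3 is the elongase of saturated and monounsaturated chains known from brown fat, skin and liver, where it makes very long chains. It was at 50.8, 68.5 and 70.8 CPM in AAV8-TBG-GFP livers and at 11.7, 11.8 and 17.3 CPM in AAV8-TBG-Cre livers. The lowest AAV8-TBG-GFP liver was well above the highest AAV8-TBG-Cre liver, and the groups did not overlap in FPKM either. The log2 fold change was -2.22 (SE 0.20, edgeR adjusted p = 0.0149), and by p-value Elovl3 ranked 5th of 13431 genes. All its expected counts were whole numbers. Among libraries with short names the log2 ratio was -2.35 and among those with long names -2.28. The short-name ratio has AAV8-TBG-Cre replicate 1 as its only AAV8-TBG-Cre liver, and the long-name ratio AAV8-TBG-GFP replicate 3 as its only AAV8-TBG-GFP liver. An exact two-sided permutation test of the 6 values gave p = 0.1, the smallest that 3 mice against 3 allow.

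The difference of Elovl3 was called at the unadjusted threshold under all 16 alternatives, with log2 fold changes between -2.43 and -1.93. The adjusted p was 0.0836 without AAV8-TBG-GFP replicate 2 and 0.0559 without AAV8-TBG-Cre replicate 2, a fit in which 0% of 13527 genes passed the adjusted threshold. Elovl3 was also lower relative to each of the other 9 members. The ratio of Elovl3 to Elovl1 in FPKM was 1.06, 1.75 and 1.46 in AAV8-TBG-GFP livers and 0.213, 0.207 and 0.266 in AAV8-TBG-Cre livers. For each of the 9 ratios the groups did not overlap (exact two-sided permutation p = 0.1 for each), with log2 differences between -4.36 for Elovl7 and -1.88 for Fads1. All 9 ratios hold Elovl3, so they depend on its lower level and are not separate results.

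Lower mRNA in a bulk sample can mean fewer cells of a type or less RNA per cell, and these cannot be told apart. Of the 9 hepatocyte markers listed, 8 were tested and 1 symbol (Tf) had no counts under that name. The median of the 8 was -0.22 on the log2 scale, with 1 higher (Cps1, 0.74) and 2 lower (Apoa2, -0.61, and Ttr, -0.57) at the unadjusted threshold. Their summed level was 102000 to 119000 CPM in AAV8-TBG-GFP and 79300 to 103000 CPM in AAV8-TBG-Cre livers. Elovl3 is also expressed in fat tissue. Of 8 adipocyte markers listed, 5 were tested and 2 were lower (Cfd, -4.75, edgeR adjusted p = 0.0149, and Plin4, -1.74). Lipe (-0.51), Fabp4 (0.11) and Lep (0.76) did not pass. The list had summed levels of 124 to 192 CPM and 57.8 to 69.3 CPM in the respective groups. Adipoq, Plin1 and Retn were not tested. Adipoq and Plin1 were near 0 in every liver, with at most 0.575 CPM and 0.419 CPM. Adipoq was at 0.204 to 0.366 CPM in AAV8-TBG-GFP and 0.433 to 0.575 CPM in AAV8-TBG-Cre livers. The part of fat tissue in the values of Elovl3 was not tested.

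Elovl1 elongates saturated and monounsaturated chains to the very long lengths found in ceramides and sphingomyelin. It stood at 46.3, 38.0 and 47.1 CPM in AAV8-TBG-GFP livers and at 53.4, 55.3 and 63.1 CPM in AAV8-TBG-Cre livers. All AAV8-TBG-Cre livers were above all AAV8-TBG-GFP livers, by a small margin. Its log2 fold change was 0.39 (SE 0.12, edgeR adjusted p = 0.14). The call at the unadjusted threshold was lost without AAV8-TBG-GFP replicate 2 (log2 fold change 0.29) and without AAV8-TBG-Cre replicate 3 (0.31).

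Elovl7, which also elongates saturated chains, was the member with the lowest level. It had 2.03, 0.612 and 1.15 CPM in AAV8-TBG-GFP livers and 2.58, 9.94 and 4.33 CPM in AAV8-TBG-Cre livers. The groups did not overlap, and AAV8-TBG-Cre replicate 2 was the highest. The lowest value rests on 12 counts (95% exact Poisson interval 6.20 to 21.0) and the highest on 242 (212 to 274), and these intervals cover counting error. Elovl7 had a log2 fold change of 2.15 (SE 0.59, edgeR adjusted p = 0.103). It was 1.44 without AAV8-TBG-Cre replicate 2, and its adjusted p was 0.0388 without AAV8-TBG-Cre replicate 1, a fit in which 6.78% of genes passed the adjusted threshold.

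Elovl6 lengthens palmitate to stearate, the step that follows lipogenesis. Its values were 116, 108 and 39.3 CPM in AAV8-TBG-GFP livers and 94.6, 36.6 and 78.2 CPM in AAV8-TBG-Cre livers. Each group held high and low livers, and the spread within the groups (CV 48.0% and 42.9%) was larger than the difference between them. Its fitted log2 fold change was -0.33 (SE 0.45, edgeR adjusted p = 0.726), and 0.15 once the form of the library name entered the fit.

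Among the elongases of saturated and monounsaturated chains, the order of Elovl3 and Elovl1 differed between the groups. Elovl3 made up 37.6%, 48.4% and 53.7% of the summed FPKM of Elovl1, Elovl3, Elovl6 and Elovl7 in AAV8-TBG-GFP livers, and 12.1%, 14.1% and 16.0% in AAV8-TBG-Cre livers. The share of Elovl1 was 33.2% ± 4.87 (SD, n = 3) and 61.7% ± 5.92. Neither share overlapped between the groups (exact two-sided permutation p = 0.1 for each). The share of Elovl6 was 19.9% ± 9.32 and 22.2% ± 8.38, with overlapping groups. The summed FPKM of the 4 genes was 68.4 ± 3.88 and 54.0 ± 2.53, again without overlap (exact permutation p = 0.1). Elovl3 is part of this sum and of the total behind each share. Its lower level therefore enters all of these values, which are not separate results.

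**Figure D2:**
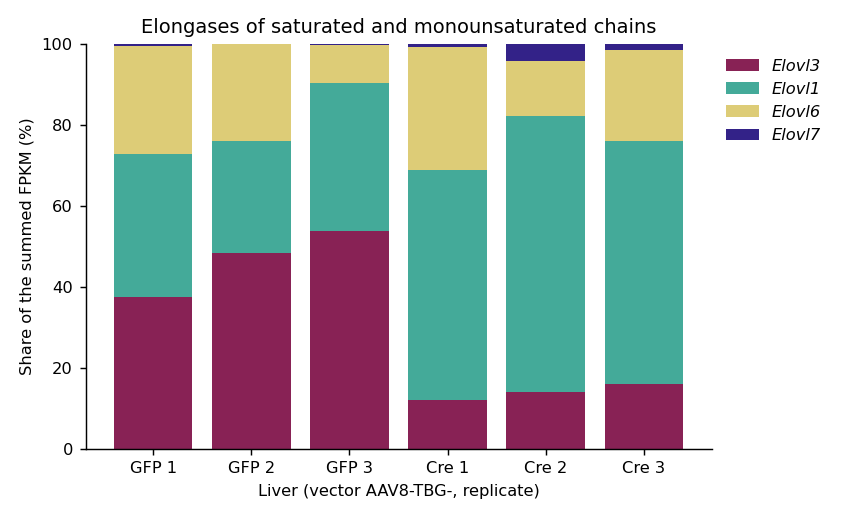
Share of each gene in the summed FPKM of Elovl1, Elovl3, Elovl6 and Elovl7, with a bar for each liver. Elovl3 takes 37.6% to 53.7% in AAV8-TBG-GFP livers and 12.1% to 16.0% in AAV8-TBG-Cre livers, while Elovl1 takes 27.7% to 36.7% and 56.7% to 68.2%.

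Elovl2 extends long polyunsaturated chains toward docosahexaenoic acid. It was at 653, 595 and 513 CPM in AAV8-TBG-GFP livers and at 655, 632 and 1200 CPM in AAV8-TBG-Cre livers. The groups overlapped in CPM, and AAV8-TBG-Cre replicate 3 stood far above the other 5 livers. Between the groups the log2 fold change was 0.50 (SE 0.27, edgeR adjusted p = 0.338), and 0.13 without AAV8-TBG-Cre replicate 3. In FPKM the groups did not overlap, and limma on log2(FPKM + 1) gave 0.60 with an unadjusted p of 0.0313 and an adjusted p of 0.217. The median of all genes in that fit was 0.112.

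Elovl5 works earlier in that pathway, between Fads2 and Fads1. Its values of 536, 449 and 627 CPM in AAV8-TBG-GFP livers lay within the range of the AAV8-TBG-Cre livers at 353, 571 and 964 CPM. The spread was wider in the AAV8-TBG-Cre group, with a CV of 49.2% against 16.5%. Elovl5 had a log2 fold change of 0.23 (SE 0.34, edgeR adjusted p = 0.748), with a log2 ratio of -0.48 among short library names and 0.29 among long ones. As for Elovl3, each of these ratios has a vector group with a single liver. The test of that difference between name forms, added after the data were seen, gave an adjusted p of 0.894 in edgeR, and at least that for each of the 10 members.

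Both elongases of polyunsaturated chains made up most of the elongase FPKM in every liver, 82.5% ± 1.61 (SD, n = 3) with AAV8-TBG-GFP and 88.7% ± 3.43 with AAV8-TBG-Cre. These shares did not overlap between the groups (exact two-sided permutation p = 0.1). The summed FPKM of Elovl2 and Elovl5 itself, 322 ± 24.7 and 458 ± 173, did overlap (exact two-sided permutation p = 0.3). A share also rises when another gene in the total, such as Elovl3, falls. The share of Elovl3 was 6.28%, 9.39% and 8.87% in AAV8-TBG-GFP livers and 1.80%, 1.53% and 1.30% in AAV8-TBG-Cre livers. Elovl2 had 36.6% ± 4.73 and 44.1% ± 4.57. Its groups were parted by a narrow margin, 39.6% in AAV8-TBG-GFP replicate 2 against 39.8% in AAV8-TBG-Cre replicate 2. The difference of 7.45 percentage points was 4.73 without AAV8-TBG-GFP replicate 3 and 5.06 without AAV8-TBG-Cre replicate 1. Elovl5 had 45.8% ± 5.83 and 44.6% ± 7.32, with overlap. The summed FPKM of all 6 elongases, 391 ± 23.8 and 512 ± 175, overlapped between the groups.

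Fads2, the delta-6 desaturase and the entry step of the pathway, was at 956, 703 and 504 CPM in AAV8-TBG-GFP livers and at 803, 576 and 832 CPM in AAV8-TBG-Cre livers. The groups overlapped over most of their range. Fads2 had a log2 fold change of 0.03 (SE 0.26, edgeR adjusted p = 0.96). It was negative without AAV8-TBG-GFP replicate 3, AAV8-TBG-Cre replicate 1 or AAV8-TBG-Cre replicate 3, with -0.18 the lowest.

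Fads1, the delta-5 desaturase that completes arachidonic acid, was at 831, 701 and 518 CPM in AAV8-TBG-GFP livers and at 729, 453 and 441 CPM in AAV8-TBG-Cre livers. Its highest value was in AAV8-TBG-GFP replicate 1 and its lowest in AAV8-TBG-Cre replicate 3, with overlap in between. The fitted log2 fold change was -0.34 (SE 0.26, edgeR adjusted p = 0.506). Without AAV8-TBG-Cre replicate 1 it was -0.61 (edgeR adjusted p = 0.126), past the unadjusted threshold. In the cluster on chromosome 19, the ratio of Fads1 to Fads2 in FPKM was 0.372, 0.427 and 0.440 in AAV8-TBG-GFP livers and 0.389, 0.337 and 0.227 in AAV8-TBG-Cre livers, with overlap (exact two-sided permutation p = 0.2).

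Fads3, a relative of both that acts on sphingoid bases, was at 10.2, 6.02 and 8.06 CPM in AAV8-TBG-GFP livers and at 11.4, 12.7 and 9.29 CPM in AAV8-TBG-Cre livers. One value of each group lay inside the range of the other. Fads3 had a log2 fold change of 0.46 (SE 0.22, edgeR adjusted p = 0.276). The summed FPKM of Fads1, Fads2 and Fads3 was 642 ± 202 and 682 ± 76.6 (SD, n = 3), with overlapping groups.

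Scd2 is the stearoyl-CoA desaturase best known from brain and from newborn tissues. It was at 5.74, 5.05 and 4.71 CPM in AAV8-TBG-GFP livers and at 8.59, 17.5 and 7.75 CPM in AAV8-TBG-Cre livers. The AAV8-TBG-GFP livers were close together (CV 10.2%), all AAV8-TBG-Cre livers were above them, and AAV8-TBG-Cre replicate 2 was highest. Its log2 fold change was 1.13 (SE 0.32, edgeR adjusted p = 0.112), and 0.66 without AAV8-TBG-Cre replicate 2. The deposited counts of Scd2, Elovl6, Elovl7, Fads2 and Fads3 were not whole, which means that some fragments were divided with other transcripts. Scd1, the main stearoyl-CoA desaturase of adult liver and a near relative of Scd2 in sequence, had 975 ± 322 and 904 ± 592 FPKM (edgeR log2 fold change -0.29, adjusted p = 0.802).

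DESeq2, run as an alternative, gave adjusted p-values of 1.26e-19 for Elovl3, 0.00548 for Elovl7 and 0.0216 for Scd2, and 0.107 for Elovl1. Over all alternatives the adjusted p lay between 1.26e-19 and 0.0836 for Elovl3, 0.00548 and 0.274 for Elovl7, 0.0216 and 0.281 for Scd2, and 0.0853 and 0.342 for Elovl1. For Elovl2 and Fads1 it lay between 0.184 and 0.729 and between 0.126 and 0.817. In DESeq2, 7.44% of 15559 genes passed the adjusted threshold. In CPM the groups did not overlap for Elovl1, Elovl3, Elovl7 and Scd2, 4 of 10 members, against 27% of all genes tested.

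**Figure D3:**
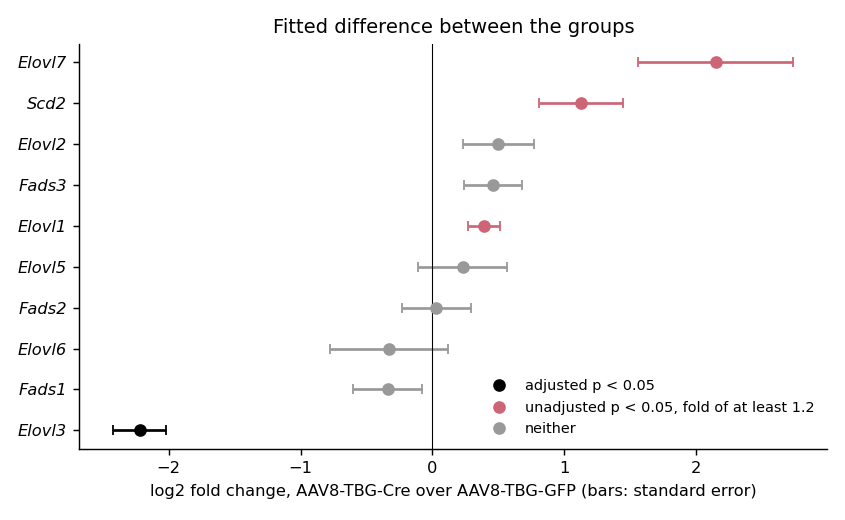
Fitted log2 fold change of each member, AAV8-TBG-Cre over AAV8-TBG-GFP, with bars of 1 standard error (edgeR, 3 mice per group). Elovl3 at -2.22 lies apart from the others, Elovl7 at 2.15 has the widest bar, and the 6 members that passed neither threshold lie between -0.34 and 0.50.

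Elovl7 and Scd2 were highest in AAV8-TBG-Cre replicate 2, the liver with the highest summed markers of bile duct, macrophage and stellate cells. The 8 cholangiocyte markers tested, of 9 listed, were all higher at the unadjusted threshold, with a median log2 fold change of 2.45, and 1.94 without AAV8-TBG-Cre replicate 2. Their summed level was 72.2 to 128 CPM in AAV8-TBG-GFP livers and 306, 574 and 360 CPM in AAV8-TBG-Cre replicates 3, 2 and 1. Most of this sum was Spp1 in every liver, with 38.0 to 89.0 CPM in AAV8-TBG-GFP and 219 to 457 CPM in AAV8-TBG-Cre livers. Epcam, which defines the bile duct epithelium, was at most 3.46 CPM in AAV8-TBG-GFP and at least 8.02 CPM in AAV8-TBG-Cre livers. Of 8 macrophage markers 5 were higher (median 0.48, and 0.37 without AAV8-TBG-Cre replicate 2), with summed levels of 172 to 199 CPM and 242 to 327 CPM. The rest did not pass, with Clec4f and Timd4 each at 0.29 and Marco at -0.75. Of 8 stellate cell and fibroblast markers 4 were higher (median 0.71, and 0.37 without AAV8-TBG-Cre replicate 2), with summed levels of 236 to 356 CPM and 465 to 965 CPM. Among the others Lrat was at -0.25 and Reln at -0.10. Of 8 endothelial markers 1 was lower (median -0.29), with summed levels of 142 to 215 CPM and 143 to 167 CPM. The part of these cells in the values of Elovl7, Scd2 and Elovl1 was not tested.

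**Figure D4:**
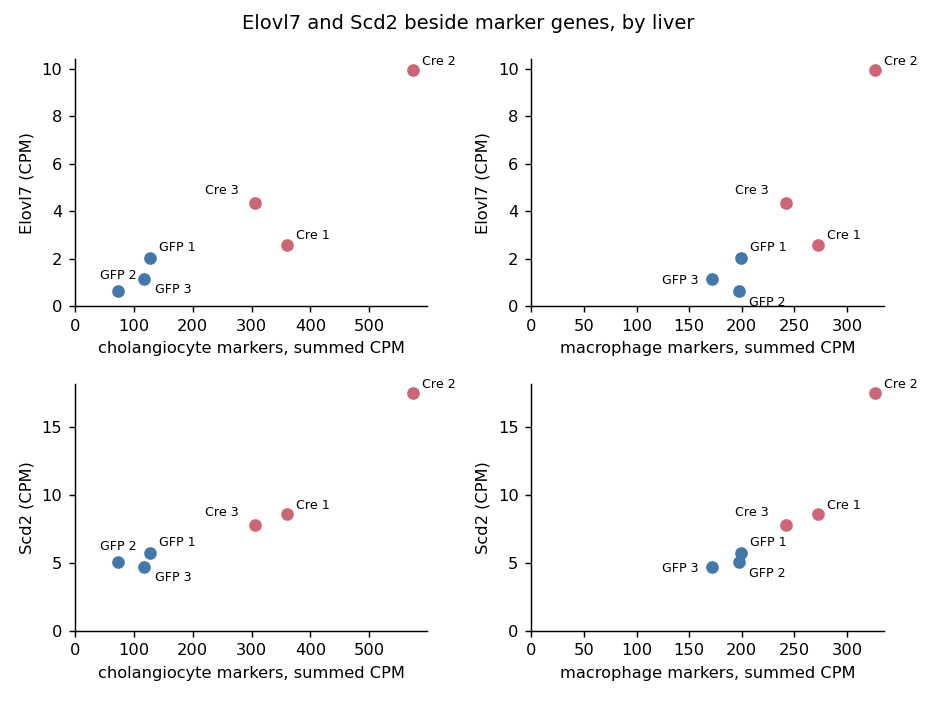
CPM of Elovl7 (top) and Scd2 (bottom) against the summed CPM of cholangiocyte markers (left) and macrophage markers (right), with a labelled dot for each of the 6 livers. AAV8-TBG-Cre replicate 2 is highest on all axes, with 9.94 CPM of Elovl7 and 17.5 CPM of Scd2. Most of the cholangiocyte sum is Spp1.

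The rest of the pathway was read from 8 lists with 80 genes, of which 70 were tested. At the unadjusted threshold 10 were higher and 13 lower, with a median log2 fold change of -0.17. Over all genes tested the shares were 12% higher and 8.41% lower, and the median was -0.01. The higher count was 4 without AAV8-TBG-GFP replicate 2 and 6 without AAV8-TBG-Cre replicate 2, and the lower count was 7 without AAV8-TBG-GFP replicate 1. None passed the adjusted threshold in edgeR (0 of 70, against 23 at an unadjusted p under 0.05), while DESeq2 passed 12, of which 3 were higher and 9 lower (7.44% of all genes passed there), and limma on log2(FPKM + 1) passed 0. The bracketed values of single genes below are edgeR log2 fold changes, and higher and lower refer to the unadjusted threshold.

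After the elongase, the cycle goes through a reductase, a dehydratase and a second reductase. Of 6 tested genes 1 was lower and 1 higher. Hsd17b12, the ketoacyl-CoA reductase that serves all elongases, was at 207, 196 and 205 CPM in AAV8-TBG-GFP livers and at 125, 130 and 156 CPM in AAV8-TBG-Cre livers (-0.56, SE 0.12). The groups did not overlap and the AAV8-TBG-GFP livers were nearly equal. The adjusted p was 0.0711 in edgeR and 0.00131 in DESeq2. The ratio of Elovl3 to Hsd17b12 in FPKM was also lower, with a log2 difference of -1.66 and no overlap (exact two-sided permutation p = 0.1). Hacd4, a dehydratase at 0.408 to 1.56 CPM, was higher (1.10). Elovl4 and Tecrl, which are listed at 0 in all AAV8-TBG-GFP livers, were not tested.

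Desaturases draw electrons from cytochrome b5. Of 5 donors tested 2 were lower, Cyb5a (-0.37, SE 0.13) and its mitochondrial relative Cyb5b (-0.68, SE 0.16). Both were without overlap, Cyb5a at 807 to 879 CPM against 628 to 680 CPM and Cyb5b at 368 to 501 CPM against 245 to 299 CPM. Of 5 other desaturases tested, Degs2, which makes phytoceramide, was higher (2.06, SE 0.52) at levels of 0.209 to 2.92 CPM. Of 4 ceramide synthases tested, Cers2, which uses very long chains, was lower (-0.34) and Cers5 was higher (0.88).

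Acyl-CoA synthetases activate fatty acids before they are lengthened. Of 9 tested, 3 were higher and 1 lower. Acsl4, which prefers arachidonic acid, was at 37.9 to 51.6 CPM in AAV8-TBG-GFP and 72.4 to 89.4 CPM in AAV8-TBG-Cre livers (0.75, SE 0.15, edgeR adjusted p = 0.0619). Slc27a1 (0.89) and Slc27a3 (0.92) were also higher, and Slc27a4 (-0.31) was lower.

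Peroxisomes shorten very long chains and complete docosahexaenoic acid. Of 15 genes tested 13 had a negative log2 fold change (median -0.28), and 4 were lower at the threshold. Among these were the thioesterase Acot4 (-0.73) and the enoyl-CoA reductase Pecr (-0.57). Pecr was at 156 to 177 CPM in AAV8-TBG-GFP and 95.1 to 148 CPM in AAV8-TBG-Cre livers, without overlap.

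Enzymes that place acyl chains into phospholipids moved both ways, 4 higher and 1 lower of 12 tested. The higher ones were Lpcat1 (0.86), Lpcat2 (1.51), Lpcat4 (1.51) and Mboat1 (1.75), each under 10 CPM in every liver. The lower one was Agpat2 (-0.61, edgeR adjusted p = 0.0674), at 226 to 255 CPM against 148 to 181 CPM. Of 14 transcriptional regulators 3 were lower and 0 higher in edgeR at the unadjusted threshold, counting the carbohydrate-response factor Mlxipl (-0.61), Ppara (-0.52) and Pparg (-0.44). Srebf1, the main activator of lipogenic genes, had -0.46 with an adjusted p of 0.701.

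**Figure D5:**
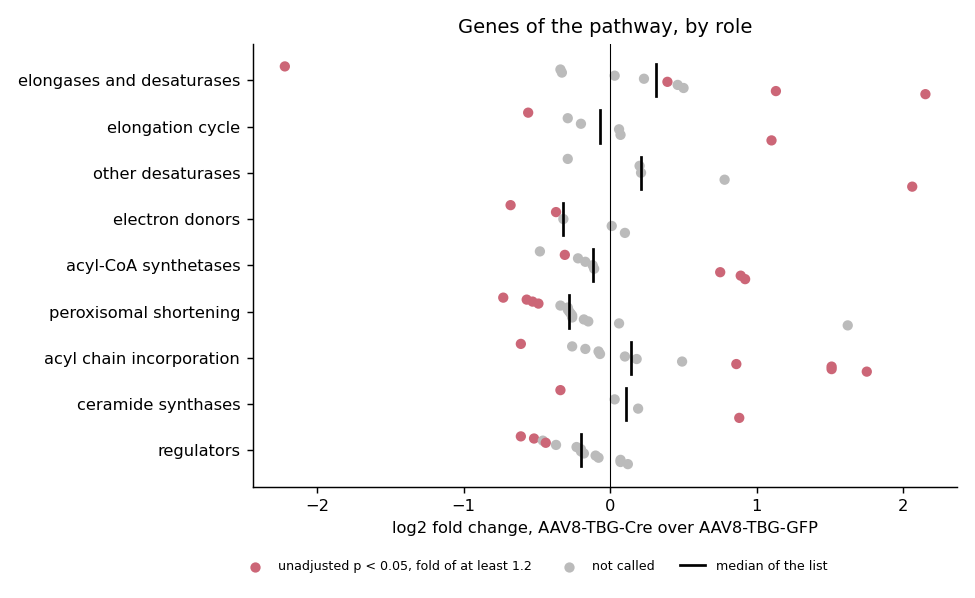
Log2 fold changes of the members (top row) and of the genes tested in the 8 pathway lists, with a dot for a gene and a black line for the median of a list. Called genes are lower among electron donors, peroxisomal genes and regulators, with medians of -0.32, -0.28 and -0.20, and lie on both sides for the members.

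For each member past the unadjusted threshold, the 3 genes with the most similar pattern were named by Pearson correlation of log2 CPM over the 6 libraries, among 11296 genes. For Elovl3 these were Slco1b2 (0.996), 2300009A05Rik (0.994) and Dennd4a (0.992). Slco1b2, a hepatocyte uptake transporter, was at 1070 to 1140 CPM and 746 to 849 CPM in the respective groups, a much smaller difference (log2 fold change -0.49, edgeR adjusted p = 0.119). For Elovl1 they were Tle1 (0.999), Atp1b1 (0.991) and Sec24b (0.991). Elovl7 was followed by Cpxm1 (0.998), Srek1 (0.997) and Anxa1 (0.995), and Scd2 by Arhgef10 (0.998), Plp2 (0.996) and the antigen presentation gene H2-DMa (0.995). All these values rest on the same 6 libraries, which share the vector groups and AAV8-TBG-Cre replicate 2.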

How the data were processed

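The authors deposited expected counts per transcript for each liver, which are estimates of fragment number that need not be whole (45.4% were) and carry no normalization. FPKM values, also deposited for transcripts and for genes, are fragments scaled by transcript length and library size. The submitters' processing notes name HISAT2, Bowtie2, RSEM and mm10, while the study's methods name STAR, HTSeq and DESeq2. Versions and the annotation are not given in the sources used here, nor is the choice between poly(A) selection and rRNA depletion. FPKM and expected counts both depend on how shared fragments were divided.

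Counts of the transcripts of a gene (joined by NCBI gene ID) were added up and rounded. All genes of the 6 livers were tested by quasi-likelihood in edgeR 4.0.16 under R 4.3.3 (TMM, filterByExpr, vector as the factor), with Benjamini-Hochberg adjustment over the 13431 tested, checked on simulated counts. Shares and ratios used FPKM with exact two-sided permutation tests, whose smallest p is 0.1. Within each group, no pair of libraries was alike within sampling noise. As alternatives, DESeq2 1.42.0 was run, and edgeR with RLE or upper quartile factors, no filter, at least 10 counts in every library, a replicate block, the library name form as a covariate, limma 3.58.1 on log2(FPKM + 1) or log2(FPKM + 0.1) with an FPKM of at least 0.5 in 3 libraries, limma without that filter, a fold of 1.5 and leaving out each liver. Coordinates, symbols and promoters came from RefSeq tables of GRCm38.p6 (mm10).

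The text names every member, each pathway gene past an unadjusted p under 0.05 with a fold of at least 1.2, Mettl14, Scd1, and the 3 genes of mean log2 CPM of at least 1 most like each called member. Some genes that this rule names are not reported here. Srebf1 and single marker genes were named beyond that rule after their values were seen. Members, lists and tests were chosen with earlier results of these data known.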

Additional observations from a re-analysis of the deposited data

How the results depend on the processing

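Of the members, DESeq2 passed 2 higher genes at the adjusted threshold, against 0 in edgeR. Leaving out each liver in turn gave 0 to 1 higher and 0 to 1 lower at the adjusted threshold (0 lower without AAV8-TBG-GFP replicate 2 or AAV8-TBG-Cre replicate 2), and 1 to 2 lower and 2 to 4 higher at the unadjusted one (2 lower without AAV8-TBG-Cre replicate 1). Elovl7 was not tested in the filtered limma fits.

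Higher pathway genes, 10 in the reported fit, numbered 6 with at least 10 counts in every library and 4 to 11 with a liver left out (4 without AAV8-TBG-GFP replicate 2, 6 without AAV8-TBG-Cre replicate 2). Lower pathway genes, 13 in the reported fit, numbered 8 in limma on log2(FPKM + 1) and on log2(FPKM + 0.1), 7 in limma without a filter, 4 at a fold of 1.5, and 7 to 15 with a liver left out (7 without AAV8-TBG-GFP replicate 1). The median of all genes was 0.112 and 0.138 in the limma fits on log2(FPKM + 1) and log2(FPKM + 0.1). The share of Elovl3 in elongase FPKM differed by -6.64 percentage points, and by -3.96 in CPM.

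Reversed values were found for members that passed no threshold. Elovl5 was at -0.09 and Elovl6 at 0.15 with the library name form as a covariate, Elovl5 at -0.22 without AAV8-TBG-Cre replicate 3 (-0.22 to 0.51 with a liver left out), and Fads2 (-0.18 to 0.28) at -0.18, -0.04 and -0.07 without AAV8-TBG-GFP replicate 3, AAV8-TBG-Cre replicate 1 and AAV8-TBG-Cre replicate 3. The difference of the Elovl5 share, -1.21 points, was 2.03 and 3.01 without AAV8-TBG-GFP replicate 3 and AAV8-TBG-Cre replicate 1 (-3.61 to 3.01 with a liver left out). The cause of these changes was not tested.

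Same-numbered livers deviated with correlations of 0.01, -0.26 and 0.21, and differently numbered ones with -0.28 to 0.31. With 3 livers per group, these values cannot show whether the numbers mark a pairing. With the replicate block the members gave 3 higher and 1 lower, and Elovl3 kept a log2 fold change of -2.23 (edgeR adjusted p = 0.0442).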
